A study of Mus musculus with 36 samples.

Results

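The response of mouse embryonic stem cells (mESCs) to leukaemia inhibitory factor (LIF) was measured on soft StemBond hydrogels in the absence of PD03. The comparison set the 3 libraries whose count columns were headed with serum + LIF against the 3 headed with serum alone, 6 of the 36 libraries of the series, over all expressed genes. All 6 came from wild-type cells of strain 129 (labelled 129m wt) after 48 h on soft gels coated with fibronectin, in medium with serum, so that LIF was the stated difference between the groups. StemBond gels are polyacrylamide gels in which matrix protein is tethered covalently, and PD03 inhibits MEK and thereby ERK signalling. For reference, the same contrast was taken on stiff gels (3 libraries against 3, the same media, 48 h) and on soft gels with PD03 in both media (3 libraries with LIF against 6 without). The cultures that gave each library are not described, so the p-values measure a spread between libraries that may be technical. That spread was estimated within groups over all 36 libraries of the series, which form 11 groups, and not from these libraries alone. In bulk RNA, a change in the number of cells of a type and a change in RNA per cell cannot be told apart.

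LIF binds its receptor LIFR, which pairs with gp130 (Il6st) and activates JAK kinases, and these phosphorylate the transcription factor STAT3. In mouse ES cells STAT3 induces its own feedback inhibitor Socs3 and transcription factors of the naive state such as Klf4 and Tfcp2l1. Serum with LIF sustains self-renewal of these cells, and withdrawal of LIF in serum is known to let them leave the naive state towards formative and primed epiblast identities.

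The libraries with LIF held 15267817 to 16204575 counts and those without it 19694142 to 20360811, so the groups did not overlap in depth, and the part of depth in the results was not tested. All 6 belonged to 1 sequencing pool. The libraries with LIF differed from one another by a root mean square log2 difference of 0.492 to 0.550 and from the serum libraries by 0.459 to 0.511, ranges that overlapped, while the serum libraries differed among themselves by 0.424 to 0.427. Library 2 with LIF stood apart on the first principal component of the 6 libraries (27.8% of the variance) and library 1 with LIF on the second (21.2%), and neither component separated the media. Mitochondrially encoded mRNAs, 13 genes, summed to 4909 to 12168 CPM with LIF and 8335 to 10793 CPM without it. A library number is the order of its column and only a name. The pluripotency factor Pou5f1 was at 593, 611 and 565 CPM with LIF and 565, 595 and 583 CPM without it, which matched the labelled cell type.

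Few genes passed the adjusted threshold with LIF on soft gels. Of 17702 genes tested, 3 passed an adjusted p of 0.05 in edgeR's quasi-likelihood test with Benjamini-Hochberg adjustment (0.0169%), all of them higher with LIF. Levels are given in CPM, which are counts scaled to the size of each library. They were Socs3, the feedback inhibitor of JAK and STAT3, Lama1, a laminin chain of the basement membrane, and Vim, which encodes the intermediate filament protein vimentin. No gene passed in the direction of lower expression, and at the looser threshold of 0.1 the same 3 genes were the only ones past it. At an unadjusted p under 0.05 there were 739 higher (4.17%) and 606 lower (3.42%) genes, 1345 in all (7.6%), and the DESeq2 Wald test, run as an alternative, called 31 higher and 5 lower. The 3 genes of the edgeR test were also called by DESeq2. For 2026 genes (11.4%) the 3 values with LIF lay wholly above or wholly below the 3 without it, 1006 above (5.68%) and 1020 below (5.76%).

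**Figure D1:**
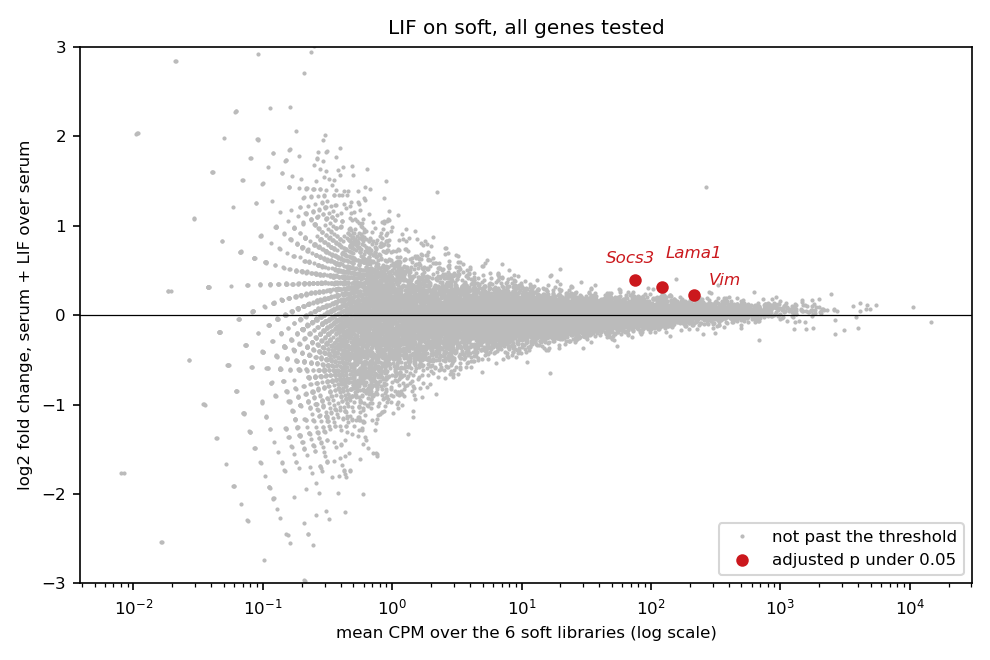
Log2 fold change of serum + LIF over serum on soft gels (vertical axis) against the mean CPM over the 6 libraries (horizontal axis, log scale), 1 point for each of 17702 genes, with the 3 genes past the adjusted threshold in red. Socs3, Lama1 and Vim lie at 0.40, 0.31 and 0.23, and 26 genes, none of them past the threshold, lie outside the vertical axis.

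Socs3 (ENSMUSG00000053113, GRCm38 chr11:117966079-117970047, minus strand) is the gene by which STAT3 limits its own activation. It was at 87.4, 85.4 and 85.3 CPM in the 3 libraries with LIF and at 58.8, 73.2 and 63.9 CPM in those without it. The groups did not overlap, and the serum libraries were spread more widely, from 58.8 to 73.2 CPM, than those with LIF. The means were 86.1 ± 1.18 and 65.3 ± 7.33 CPM (SD, n = 3 each), a rise of 1.32-fold (95% interval 1.19 to 1.45) or 0.40 ± 0.07 (SE) on the log2 scale, with an edgeR adjusted p of 0.0142.

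The upstream sequence of Socs3 is shown because it carries the 1 match to the palindrome bound by STAT dimers among the genes past the threshold that have a RefSeq promoter entry. The stretch covers the 250 bases before the RefSeq start of Socs3 (GRCm38.p6, chr11:117969367-117969616, minus strand), where GENCODE M21 places a non-coding processed transcript of the same gene. Letters matching TTCNNNGAA are in capitals, and the match begins 154 bases before the start.
Socs3: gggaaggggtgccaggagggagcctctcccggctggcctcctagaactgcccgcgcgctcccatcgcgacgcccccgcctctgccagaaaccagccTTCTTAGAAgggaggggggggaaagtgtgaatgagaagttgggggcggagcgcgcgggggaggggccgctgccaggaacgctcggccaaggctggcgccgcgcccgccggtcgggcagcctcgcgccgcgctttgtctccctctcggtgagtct
The motif reads the same on both strands, and no other motif was searched. It was found in the upstream 250 bases of 2197 of the 27025 genes in the promoter table (8.13%) and of 825 of the 11989 tested genes with an entry (6.88%). Among the 15 LIF and STAT3 targets with an entry, 3 held it, Socs3, Sgk1 and Kdm3a. The windows of Vim, Klf4, Tfcp2l1, Bcl3, Junb and Stat3 did not hold these letters, which says nothing of binding elsewhere. For Lama1 the table has no entry.

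Lama1 (ENSMUSG00000032796, GRCm38 chr17:67697259-67822647, plus strand) encodes laminin alpha 1, a chain of the laminin that early embryonic basement membranes contain. It was at 131, 136 and 136 CPM with LIF and at 112, 113 and 99.4 CPM without it. All values with LIF were above all values without it, and library 3 without LIF was the lowest. The rise was 1.24-fold (95% interval 1.15 to 1.34), 0.31 ± 0.06 (SE) on the log2 scale, from 108 ± 7.72 to 134 ± 2.58 CPM (SD, n = 3 each), with an edgeR adjusted p of 0.0142. Laminin alpha 1 is also a product of primitive and visceral endoderm. Of the 13 listed markers of that lineage, 11 were tested and none passed the threshold, their sums were 283 to 292 CPM with LIF and 259.6 to 283 CPM without it, and Ttr and Afp were too low to be tested. The endoderm factors Gata6 and Sox7, singled out after their values were seen, had their highest values, 10.9 and 14.2 CPM, in library 2 with LIF, against 6.48 to 7.78 and 7.85 to 10.4 CPM in the other 5 libraries. The whole list went both ways, with 8 of the 11 tested markers above 0 and 3 below, from -0.63 to 0.47 on the log2 scale. The part of these markers in the result was not tested.

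Vim (ENSMUSG00000026728, GRCm38 chr2:13573927-13582826, plus strand) encodes vimentin, the intermediate filament of mesenchymal and many undifferentiated cells. It was at 236, 238 and 228 CPM with LIF and at 197, 203 and 199 CPM without it. The groups were well apart, and the spread within each was small. Vim rose by 1.17-fold (95% interval 1.10 to 1.25), from 199.7 ± 2.66 to 234 ± 5.27 CPM (SD, n = 3 each), 0.23 ± 0.04 (SE) on the log2 scale with an edgeR adjusted p of 0.0395. Of the 8 listed fibroblast markers, 7 were tested and none passed the threshold. All 7 log2 differences were above 0, from 0.02 to 0.33, and the groups overlapped for each of them. They summed to 28.3 to 32.6 CPM with LIF and 25.1 to 32.1 CPM without it, and Lum was too low to be tested. Their part in the rise of Vim was not tested. The 3 calls were not firm. Under the 13 alternatives Socs3 kept its call in 8, Lama1 in 7 and Vim in 6, and all 3 were lost when library 1 or library 2 with LIF, or library 1 or library 3 without LIF, was left out. In each alternative the 3 log2 fold changes stayed above 0, from 0.33 to 0.49 for Socs3, from 0.26 to 0.35 for Lama1 and from 0.20 to 0.25 for Vim.

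**Figure D2:**
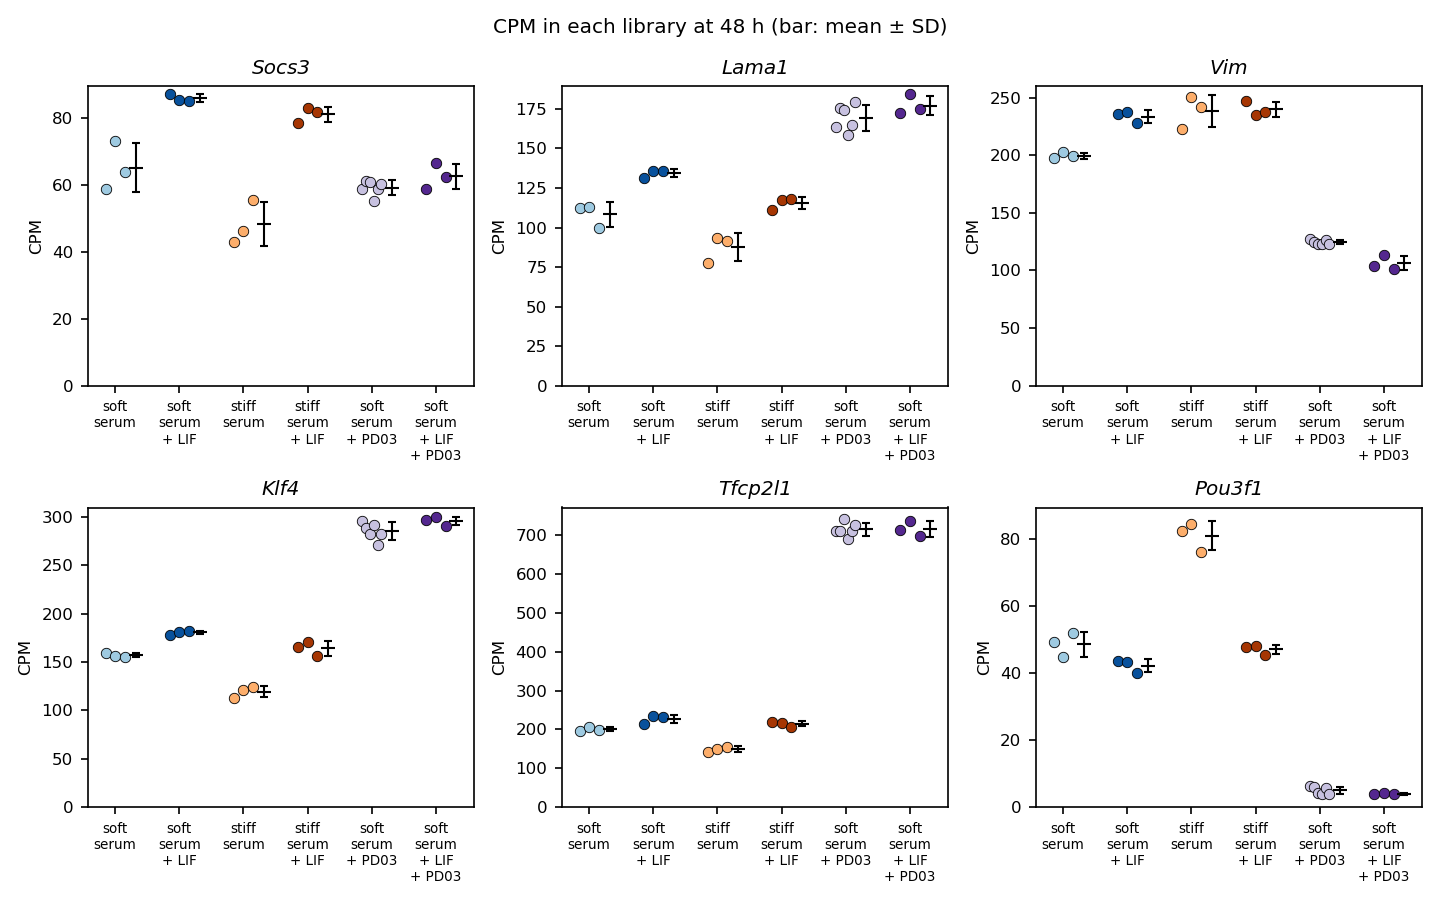
CPM (vertical axis, from 0) of 6 genes in each library at 48 h, by substrate and medium, with the mean ± SD of each group beside its points (n = 3, and n = 6 for soft gels in serum + PD03). On soft gels Socs3, Lama1, Vim, Klf4 and Tfcp2l1 were higher in every library with LIF than in every library without it. The values of Pou3f1 lay at 39.96 to 43.5 with LIF and 44.7 to 51.96 without it.

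The genes next in order did not pass the threshold in the edgeR test, though several of them did in the DESeq2 Wald test. Among genes of at least 5 CPM without overlap between the groups, those with the smallest p in the higher direction included Socs3, Lama1, Vim, Mylpf, Spp1, Ctnnal1 and Klf4. Mylpf, a regulatory light chain of skeletal muscle myosin, was at 18.7, 19.4 and 18.6 CPM with LIF and 13.9, 13.5 and 14.4 CPM without it, a log2 difference of 0.44 ± 0.09 (SE) with an edgeR adjusted p of 0.106. Spp1, the secreted matrix protein osteopontin, was at 293, 335 and 294 CPM against 269, 261 and 240.2 CPM. Its difference was 0.26 ± 0.06, and library 2 with LIF was the highest. Ctnnal1, which encodes alpha-catulin, a relative of alpha-catenin, differed by 0.25 ± 0.05. The edgeR adjusted p-values of Spp1 and Ctnnal1 were 0.106 and 0.106. In the DESeq2 Wald test the adjusted p-values were 0.00985 for Mylpf, 0.00985 for Spp1 and 0.0106 for Ctnnal1.

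In the lower direction the genes with the smallest p included Marveld1, Ptch1, Mafg, Agfg2, Fbxl20, Clip1 and Rimklb, with log2 differences of -0.52, -0.20, -0.27, -0.37, -0.36, -0.39 and -0.38 in that order and edgeR adjusted p-values from 0.106 to 0.227. Ptch1, the receptor that represses hedgehog signalling and is itself a hedgehog target, was at 286, 297 and 291 CPM with LIF and 339, 331 and 337 CPM without it. The groups were well apart, by -0.20 ± 0.05 (SE). Mafg, a small Maf factor, was at 45.7, 46.9 and 44.5 CPM against 55.9, 55.5 and 53.8 CPM. Marveld1, which encodes a membrane protein with a MARVEL domain, had its lowest value in library 1 with LIF, at 6.52, 9.84 and 10.7 CPM against 12.7, 13.1 and 12.9 CPM. None of these genes passed the threshold in the stiff contrast, where their log2 differences ranged from -0.21 to 0.08. In the DESeq2 Wald test on soft gels Marveld1, Ptch1, Mafg and Agfg2 passed, with adjusted p-values of 0.0106, 0.025, 0.0411 and 0.0411. Fbxl20, Clip1 and Rimklb did not pass in it.

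The components of the LIF pathway were measured next. Of the 22 listed genes of the receptor and JAK-STAT pathway, all tested, 1 passed the threshold, Socs3. The median log2 difference was 0.04, against -0.0011 over all genes tested, and 14 members were above 0 and 8 below. The ligand Lif itself was low, at 2.38, 3.68 and 3.66 CPM with added LIF and 3.06, 3.03 and 2.96 CPM without it. Of the 22 genes, 4 lay wholly higher with LIF and 1 wholly lower, where 5.68% and 5.76% of all genes tested did. The receptor chains Lifr and Il6st had higher values in every library with LIF, without passing the threshold, and for Il6st the margin was very small. Lifr was at 198, 205 and 219.7 CPM against 190.0, 193 and 193 CPM, a log2 difference of 0.11 ± 0.04 (SE), and Il6st at 114.8, 114.0 and 119.0 CPM against 101.9, 113.8 and 105.5 CPM, 0.11 ± 0.05, with edgeR adjusted p-values of 0.529 and 0.554. Osmr, the receptor chain for oncostatin M, had the largest log2 difference of the list, 1.42 ± 0.44, but at 1.003, 1.40 and 0.523 CPM against 0.296, 0.480 and 0.306 CPM it was barely expressed, and its edgeR adjusted p was 0.338. Il6ra was at a mean of 0.133 CPM per kb of exon, against 18.5 for Lifr and 10.05 for Il6st.

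Among the kinases, the log2 differences were 0.10 for Jak1, -0.14 for Jak2 and -0.20 for Tyk2. Stat3 was at 103, 107 and 109.8 CPM with LIF and 99.4, 105 and 97.6 CPM without it, so that the groups overlapped, with a log2 difference of 0.08 ± 0.06 (95% interval -0.03 to 0.19). Stat5a and Stat5b differed by -0.25 and -0.0066. Of the further feedback inhibitors, Socs2 was lower in every library with LIF, at 58.6, 57.02 and 60.6 CPM against 66.6, 63.3 and 69.4 CPM, a difference of -0.18 ± 0.07 with an edgeR adjusted p of 0.493, while Socs1 and Cish differed by -0.07 and 0.07. The phosphatases Ptpn2, Ptpn6 and Ptpn11, the adaptors Gab1 and Grb2, and the STAT inhibitor Pias3 differed by 0.01, 0.00073, -0.02, 0.02, 0.05 and -0.09. Il6ra and Lif differed by 0.21 and 0.10. Of the 22 intervals, 16 lay within 0.5 of 0 on the log2 scale, which is 1.41-fold.

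Known targets of LIF and STAT3 lay mostly above 0. Of the 18 listed, 17 were tested, 14 were above 0 and 3 below, and the median was 0.09, but Socs3 was the only member past the threshold. There were 6 members without overlap between the groups, all higher with LIF, namely Socs3, Bcl3, Klf4, Gbx2, Tfcp2l1 and Junb, where 5.68% of all genes tested lay wholly higher. Bcl3, a transcriptional regulator of the NF-kappaB family induced by STAT3, was at 119.7, 119 and 102 CPM with LIF and 92.2, 89.1 and 96.2 CPM without it, a log2 difference of 0.29 ± 0.07 (SE) with an edgeR adjusted p of 0.163. Junb, an AP-1 subunit, differed by 0.21 ± 0.10. Library 3 with LIF held the lowest of the Bcl3 values with LIF. The adjusted p of Bcl3 in the DESeq2 Wald test was 0.0411. Of the Pim kinases, Pim1, Pim2 and Pim3 differed by 0.09, -0.12 and 0.04, and Myc and Fos by 0.09 and 0.02. Kdm3a, Ocln, Sgk1 and Smad7 differed by 0.08, 0.14, -0.09 and -0.12. The summed level of the 17 genes was 2597 to 2788 CPM with LIF and 2459 to 2564 CPM without it.

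The naive pluripotency factors lay mostly above 0, without a call. Of 15 listed and tested, none passed the threshold, 13 were above 0 and 2 below, and the median log2 difference was 0.08. Summed over the list, the level was 3081 to 3258 CPM with LIF and 2925 to 2974 CPM without it, so the groups did not overlap. Klf4, a direct STAT3 target and naive factor, was at 178, 182 and 182 CPM with LIF and 159, 156 and 156 CPM without it, a difference of 0.20 ± 0.05 (SE) with an edgeR adjusted p of 0.143. Tfcp2l1, another STAT3 target that sustains self-renewal, was at 214, 234 and 232 CPM against 196, 206 and 199.6 CPM, 0.18 ± 0.05 with an edgeR adjusted p of 0.259. Gbx2 was at 79.01, 78.7 and 75.6 CPM against 67.3, 65.6 and 65.01 CPM and Tbx3 at 115, 109 and 107 CPM against 93.1, 100.1 and 97.9 CPM. Together with Zfp42, at 547, 583 and 555 CPM against 524, 527 and 517 CPM, these were the 5 naive genes whose values with LIF lay wholly above those without it, where 5.68% of all genes tested did. In the DESeq2 Wald test Klf4, Tbx3 and Gbx2 passed the threshold, with adjusted p-values of 0.00604, 0.0411 and 0.0497, whereas Tfcp2l1 did not.

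Nanog and Esrrb, which stand at the centre of the naive network, overlapped between the media. Nanog was at 228, 247 and 243 CPM with LIF and 214, 235 and 230.4 CPM without it, a log2 difference of 0.08 ± 0.06 (SE), and Esrrb at 371, 378 and 359 CPM against 338, 367 and 349 CPM, 0.07 ± 0.05. Their 95% intervals were -0.04 to 0.20 and -0.02 to 0.16, so that a difference of more than 1.41-fold lay outside them. The remaining naive genes differed by 0.18 for Klf5, 0.10 for Zfp42, 0.14 for Dppa3, 0.08 for Nr0b1, 0.08 for Prdm14, 0.03 for Tcl1, 0.02 for Nr5a2, -0.0066 for Klf2 and -0.08 for Fgf4. All 15 intervals of the list lay within 0.5 of 0. The sign for Klf2 was not settled, since it was -0.0066 here and above 0 with other scalings.

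General pluripotency factors showed no common direction. None of the 7 passed the threshold, with log2 differences of 0.02 for Pou5f1, -0.10 for Sox2, 0.03 for Sall4, 0.05 for Utf1, 0.01 for Lin28a, 0.18 for Dppa2 and -0.12 for Dppa4, and all 7 intervals lay within 0.5 of 0. Markers of the formative and primed epiblast lay mostly below 0. Of 12 tested, none passed the threshold, 8 were below 0 and 4 above, and the median was -0.12. Their summed level was 912 to 929 CPM with LIF and 939 to 983 CPM without it. Sall2 was at 8.53, 10.4 and 9.03 CPM with LIF and 12.4, 12.6 and 12.2 CPM without it, -0.41 ± 0.13 (SE), and Otx2, a transcription factor of the exit from naive pluripotency, at 19.3, 21.3 and 16.9 CPM against 25.5, 20.7 and 25.7 CPM, -0.32 ± 0.10, with edgeR adjusted p-values of 0.338 and 0.32. Pou3f1 was at 43.5, 43.4 and 39.96 CPM against 49.2, 44.7 and 51.96 CPM and differed by -0.20 ± 0.09. Otx2 overlapped between the media. Sall2, Pou3f1, Fgf5, Sox4 and Dnmt3b, 5 of the 12, lay wholly lower with LIF and Sox3 wholly higher, where 5.76% and 5.68% of all genes tested did. Fgf5, the classical marker of the primed epiblast, had the lowest value of the list, -0.77 ± 0.33, at 1.32, 1.90 and 1.11 CPM against 2.57, 2.11 and 2.75 CPM. The remaining members were -0.23 for Sox4, -0.14 for Dnmt3b, -0.10 for Zic2, -0.09 for Lef1, 0.05 for Dnmt3a, 0.07 for Tcf15, 0.07 for Dnmt3l and 0.21 for Sox3.

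**Figure D3:**
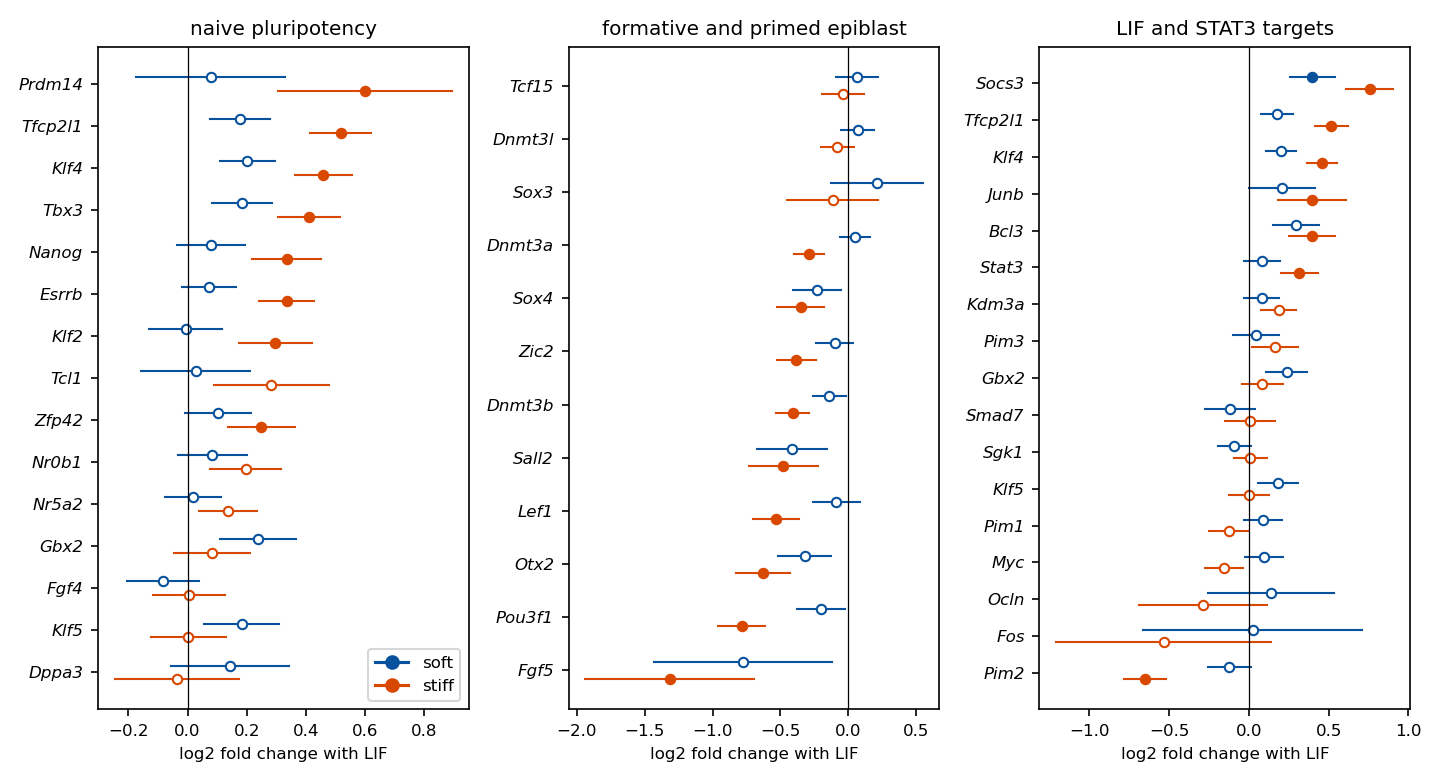
Log2 fold change with LIF (horizontal axis) and its 95% interval on soft (blue) and stiff (orange) gels for the tested members of 3 lists, with filled points for genes past an edgeR adjusted p of 0.05. On soft gels the only filled point is Socs3, while on stiff gels 8 naive genes, 9 formative and primed genes and 7 LIF and STAT3 targets are filled.

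Markers of other lineages did not pass the threshold of the edgeR test in any list. Median log2 differences were -0.10 over 10 genes of primitive streak and mesoderm, 0.19 over 6 genes of the neural lineage, 0.15 over 11 genes of primitive and visceral endoderm, 0.25 over 8 genes of trophectoderm and 0.17 over 7 genes of fibroblasts. The members with the smallest p of each list were Nodal (-0.12 ± 0.07), Sox1 (0.33 ± 0.12), Pdgfra (0.47 ± 0.18), Hand1 (0.50 ± 0.14) and Col1a1 (0.17 ± 0.16), in that order. Hand1, a factor of trophoblast and mesoderm, was at 10.97, 9.33 and 7.85 CPM with LIF and 7.05, 6.20 and 6.63 CPM without it, with an edgeR adjusted p of 0.227. It did pass in the DESeq2 Wald test, with an adjusted p of 0.0418, and in the edgeR fit with no filter, at 0.0198. The trophectoderm gene Tfap2c, which ES cells also express, differed by 0.21 ± 0.06. The 6 neural genes summed to 151 to 161 CPM with LIF and 136 to 141 CPM without it, so the groups did not overlap there, and their part in the other results was not tested.

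The lists that hold Lama1 and Vim were examined beside them. Of 18 tested genes of the basement membrane, Lama1 alone passed the threshold, and the median was 0.10. The list went both ways, with 12 above 0 and 6 below, from -0.44 to 0.31. There were 4 members wholly higher with LIF and 2 wholly lower, where 5.68% and 5.76% of all genes tested were. Nid1, which encodes nidogen, the linker between laminin and collagen IV, was at 151, 153 and 152 CPM with LIF and 134, 136 and 135 CPM without it, 0.17 ± 0.05 (SE) with an edgeR adjusted p of 0.259, and 0.0434 in the DESeq2 Wald test. The sum over the list was 4611 to 4764 CPM with LIF and 4330.2 to 4471 CPM without it. Among 12 intermediate filament and lamin genes Vim alone passed, 9 were above 0, and the median was 0.05. ERK targets had a median of 0.04 over 16 genes, from -0.09 to 0.33. Phlda1, which had the smallest p, differed by 0.20 ± 0.09, and Dusp4 by 0.11 ± 0.10. Cell cycle regulators had a median of 0.04 over 12 genes, where the proliferation marker Mki67 was at 1029, 956 and 1012 CPM against 931, 783 and 891 CPM, 0.20 ± 0.07 with an edgeR adjusted p of 0.414. Targets of SRF and YAP, which respond to actin and load, had a median of -0.02 over 19 genes, from -0.34 to 0.13. Mitochondrially encoded mRNAs had a median of -0.08, led by mt-Atp8 at -0.49 ± 0.31. In none of these 4 lists did a gene pass in the edgeR test over the 17702 genes. In the edgeR fit with no filter Mki67 passed, with an adjusted p of 0.0172. Over the 16 lists, the summed level was higher in every library with LIF for 6, lower for 2 and overlapping for 8. Of all single genes tested, 5.68% lay wholly higher and 5.76% wholly lower. How often sums over other sets of genes would do so was not tested. The lists share genes (214 entries, 205 distinct genes) and abundant members weigh most in a sum, so these counts are only a description.

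The 95% intervals describe the size of the differences with LIF on soft gels. They rest on the spread between libraries, which may be technical, so they set no limit across independent cultures. For 56.7% of the 17702 genes the 95% interval lay within 0.5 of 0 on the log2 scale, which is 1.41-fold, and for genes of at least 5 CPM the share was 94.0% (9630 of 10244). Among the latter, the log2 differences had an SD of 0.11, with a median SE of 0.08, and the 5th and 95th percentiles were -0.19 and 0.17.

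The same contrast on stiff gels called 249 genes (1.41%), 126 higher (0.712%) and 123 lower (0.695%) with LIF. Socs3 and Lama1 were the only genes past the threshold on both substrates. On stiff gels Socs3 was at 78.6, 83.1 and 81.9 CPM with LIF and 43.1, 46.3 and 55.6 CPM without it, 0.76 ± 0.07 (SE), and Lama1 differed by 0.40 ± 0.06. Vim, at 247, 235 and 237 CPM against 223, 250.4 and 242 CPM, differed by 0.0096 ± 0.04 there. The difference between the LIF effects on soft and stiff gels did not pass the threshold for any of the 3, at -0.36, -0.09 and 0.22, with edgeR adjusted p-values of 0.167, 0.772 and 0.187. The soft libraries came from 1 sequencing pool and the stiff ones from others, with 1 of the 3 stiff LIF libraries in another pool than the remaining stiff libraries of this contrast, so substrate and pool cannot be told apart here.

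Genes called on stiff gels mostly kept their sign on soft gels but were smaller. Of the 249, 188 (75.5%, Wilson 95% interval 69.8% to 80.4%) had the same sign on soft gels, 111 of the 126 higher genes (88.1%) and 77 of the 123 lower genes (62.6%). The medians of the higher genes were 0.36 on stiff and 0.10 on soft gels, and those of the lower genes -0.35 and -0.04. In 125 of the 126 and in all 123, the soft value was closer to 0. The genes were chosen on the stiff libraries, so the comparison of sizes is a description and no test. The 2 contrasts share no library. On soft gels, 43 of the 126 higher genes and 16 of the 123 lower ones had an unadjusted edgeR p under 0.05 with the same sign. With the opposite sign there were 1 and 3. Of all 17702 genes tested, 4.17% were higher and 3.42% lower on soft gels at that p. Over the same 17702 genes, 8783 were above 0 and 8919 below. Across genes of at least 5 CPM, the log2 differences on soft and stiff gels had a Pearson correlation of 0.0612, in which genes are not independent replicates. Without library 3 with LIF on soft gels the share with the same sign was 60.1%, and without serum library 2 on stiff gels it was 84.1%. Both lie outside the Wilson interval, which treats genes as independent although they are not, so that interval is only a description.

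**Figure D4:**
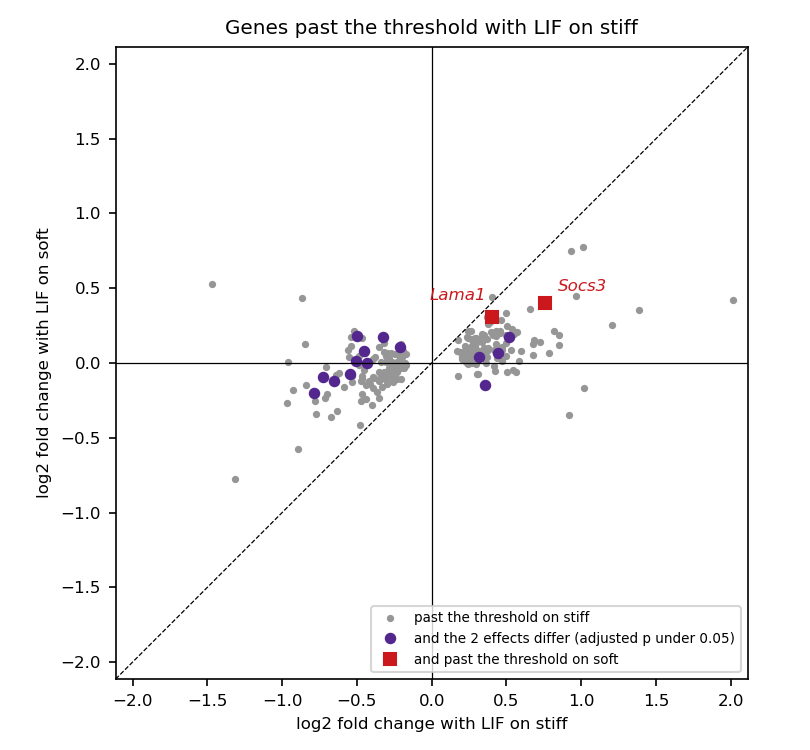
Log2 fold change with LIF on soft gels (vertical axis) against stiff gels (horizontal axis) for the 249 genes past the threshold on stiff gels, with equal scales and the line of equality dashed. Purple points are the 14 genes whose effects on the substrates differed past the threshold, red squares are Socs3 and Lama1, and nearly all points lie closer to 0 on soft gels.

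The naive factors called on stiff gels were Prdm14, Tfcp2l1, Klf4, Tbx3, Nanog, Esrrb, Klf2 and Zfp42, with log2 differences there of 0.60, 0.52, 0.46, 0.41, 0.34, 0.33, 0.30 and 0.25, against 0.08, 0.18, 0.20, 0.18, 0.08, 0.07, -0.0066 and 0.10 on soft gels. The median of the 15 naive genes was 0.28 on stiff gels and 0.08 on soft gels. Of the formative and primed genes, 9 of 12 were called lower on stiff gels, and the median was -0.40 there. For all 12 the log2 difference with LIF was higher on soft than on stiff gels, which is no statement about their level. Pou3f1 was at 47.9, 47.99 and 45.5 CPM with LIF and 82.5, 84.5 and 76.2 CPM without it on stiff gels, against 43.5, 43.4 and 39.96 CPM and 49.2, 44.7 and 51.96 CPM on soft gels, so the serum libraries differed more between substrates than those with LIF. Likewise Tfcp2l1 was at 218, 218 and 207 CPM and 143, 151 and 156 CPM on stiff gels, with its lowest values in stiff serum. For both, the difference between the LIF effects passed the threshold, at 0.58 ± 0.12 and -0.34 ± 0.07 (SE), each with an edgeR adjusted p of 0.0375.

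In all, the LIF effect differed past the threshold between soft and stiff gels for 15 genes (0.0847%). The 5 with the smallest p were Jam2, Pim2, Zyx, Rpl29 and Tns1. Jam2, a junctional adhesion molecule, was called higher with LIF on stiff gels (0.45 ± 0.05) and was at 174, 181 and 182 CPM with LIF and 178, 173 and 161 CPM without it on soft gels, 0.07 ± 0.05. Pim2, a kinase, was called lower on stiff gels (-0.65 ± 0.07) and was at 89.7, 80.2 and 77.04 CPM against 90.9, 79.7 and 98.3 CPM on soft gels, -0.12 ± 0.07. The differences between the effects, soft minus stiff, were -0.38 ± 0.06 and 0.53 ± 0.09, with an edgeR adjusted p of 0.00612 for each. Zyx, which encodes the focal adhesion protein zyxin, Rpl29, a ribosomal protein gene, and Tns1, which encodes tensin, differed by 0.47 ± 0.09, 0.50 ± 0.10 and -0.50 ± 0.10. Rpl29 belongs to a family with processed copies, so its reads may be shared and its value is uncertain. This count of 15 was 0 without library 1 with LIF on either substrate, where the edgeR fits held 1657 (soft) and 1485 (stiff) genes with an unadjusted p under 0.05, and it was 124 without library 3 with LIF on soft gels. It was 2 without soft LIF library 2, 6, 5 and 6 without soft serum libraries 1, 2 and 3, 1 without stiff LIF library 2, and 8, 1 and 23 without stiff serum libraries 1, 2 and 3.

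SRF and YAP targets, of which 9 of 19 were called lower with LIF on stiff gels, showed values near 0 on soft gels. Acta2, smooth muscle actin, differed by -0.84 on stiff and -0.14 on soft gels. The secreted glycoprotein gene Thbs1 was at 29.2, 34.2 and 25.6 CPM with LIF and 27.2, 30.9 and 25.8 CPM without it on soft gels, 0.08 ± 0.09, against -0.46 ± 0.08 on stiff gels, and its effects differed by 0.54 ± 0.12 with an edgeR adjusted p of 0.0412. The others called on stiff gels, Tagln, Cnn1, Vcl, Cnn2, Flnc, Tpm1 and Ccn2, were at -0.16, -0.34, -0.04, 0.0066, 0.04, -0.10 and -0.11 on soft gels. All 19 were lower on stiff than on soft gels in the log2 difference with LIF. Of the genes past the threshold on stiff gels with a mean of at least 5 CPM there, the 5 with the largest rises, Nkx6-2, Khdc3, Xaf1, Socs3 and Gm21992, rose by 0.85, 0.85, 0.82, 0.76 and 0.68 there and were at 0.12, 0.19, 0.22, 0.40 and 0.15 on soft gels, while the 5 with the largest falls, Vrtn, Enpp2, Acta2, Pou3f1 and Cnn1, changed there by -0.97, -0.93, -0.84, -0.78 and -0.77 and were at -0.27, -0.18, -0.14, -0.20 and -0.34 on soft gels.

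With MEK inhibited by PD03 in both media, 19 genes (0.107%) passed the threshold with LIF on soft gels, 7 higher (0.0395%) and 12 lower (0.0678%). Vim was the only gene past the threshold both with and without PD03, and its direction was opposite. With PD03 it was at 104, 113 and 102 CPM with LIF and from 123 to 127 CPM in the 6 libraries without it, a change of -0.23 on the log2 scale (edgeR adjusted p 0.0047). The effect without PD03 exceeded that with PD03 by 0.45 ± 0.06 (SE), with an edgeR adjusted p of 2.19e-05. Socs3, at 58.9, 66.6 and 62.4 CPM with LIF and 55.4 to 61.3 CPM without it, overlapped between the media under PD03 and differed by 0.08 ± 0.06, and Lama1 by 0.07 ± 0.05. The difference between the effects was 0.32 ± 0.09 for Socs3 and 0.25 ± 0.07 for Lama1, with edgeR adjusted p-values of 0.372 and 0.396.

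The LIF effect on soft gels differed past the threshold with PD03 for 4 genes (0.0226%), Vim, Ctnnal1, Trh and Hist1h3h. Trh, which encodes thyrotropin-releasing hormone, was at 134, 119.8 and 135 CPM with LIF and 114, 104 and 121 CPM without it in the absence of PD03, and at 5.39, 6.48 and 7.79 CPM with LIF and 7.75 to 12.7 CPM without it in its presence. The effects differed by 0.88 ± 0.15 (SE) with an edgeR adjusted p of 0.00587. Ctnnal1 was at 124, 138 and 135 CPM against 115, 113 and 106 CPM without PD03, and the effects differed by 0.41 ± 0.07. The histone gene Hist1h3h, whose reads may be shared with near-identical copies and whose value is uncertain, gave -0.73 ± 0.15. Rasgrp2, next in order of p, gave 0.45 ± 0.09 and an edgeR adjusted p of 0.0513. Of the 6 libraries in serum + PD03, 2 came from the pool of the stiff libraries, and which columns they are is not given. Over the 15 fits that each left out 2 of the 6, the count of 4 lay between 1 and 5. With single libraries left out it was 1 and 2 without libraries 1 and 3 with LIF and PD03, 2 and 8 without soft LIF libraries 2 and 3, and 2 without soft serum library 3.

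Of the 19 genes called under PD03, 10 (52.6%, Wilson 95% interval 31.7% to 72.7%) had the same sign without it. Genes are not independent, so the interval is only a description. The 5 largest in the higher direction with a mean of at least 5 CPM, Mlxipl, Hist1h3h, Eps8l2, Parm1 and Rhox9, were at 0.56, 0.49, 0.31, 0.31 and 0.30 with PD03 and at -0.25, -0.24, -0.33, 0.24 and 0.22 without it. The 5 largest in the lower direction, Trh, Lefty1, Lefty2, Slc16a3 and Rasgrp2, were at -0.69, -0.57, -0.48, -0.41 and -0.40 with PD03 and at 0.20, -0.13, -0.12, 0.02 and 0.05 without it. Lefty1 and Lefty2, the extracellular inhibitors of Nodal, did not pass the threshold without PD03, where Lefty2 was at 49.9, 44.1 and 53.6 CPM with LIF and 52.9, 50.1 and 57.01 CPM without it. The medians of the naive list were 0.08 without PD03 and 0.0030 with it, and those of the formative and primed list -0.12 and -0.06. No naive, formative or primed gene passed the threshold of the edgeR test on soft gels, with or without PD03.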

How the data were processed

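The members of the comparison and the gene lists were chosen with earlier results of these data known. Total RNA was sequenced after library preparation with a NuGen kit per the labels, whereas the methods of the study name several kits. The authors aligned reads to GRCm38 (mm10) with STAR 2.5.2a and counted them per Ensembl gene with htseq-count, and the strand setting was not given in the sources used here. The deposited values were raw read counts for 49671 genes, as whole numbers without normalization, of which 13380 had no count in any library. Columns carry a group name and no replicate number, and were mapped to groups only.

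The edgeR package (4.0.16, R 4.3.3) was used. Its filterByExpr function left 17702 genes, with 99.9% of the counts, and scaling was by TMM. One quasi-likelihood model with 1 coefficient per group was fitted over all 36 libraries and contrasts were tested with glmQLFTest, with Benjamini-Hochberg adjustment over the 17702 genes and a threshold of 0.05. Each log2 fold change is given with its SE or 95% interval, and CPM values were computed with TMM-scaled library sizes. Interactions were differences of LIF contrasts. The named genes were all genes past the threshold, the 8 per direction with the smallest p on soft gels among genes of at least 5 CPM whose groups did not overlap, all members of 5 lists (LIF pathway, LIF and STAT3 targets, naive, general, and formative and primed pluripotency), of each other list the members past the threshold in a LIF contrast and that with the smallest p, the 5 largest changes per direction on stiff gels and under PD03 among genes past the threshold with a mean of at least 5 CPM, and the 5 smallest p of each interaction. Depth ranged from 10405696 to 26635239 counts per library. Some named genes are not reported here. The test was first tested on simulated counts. Alternatives were DESeq2 1.42.0 size factors, the DESeq2 Wald test, no filter, a filter of 1 CPM in 3 libraries, robust estimation, fewer libraries in the fit and each library left out. Promoter windows came from RefSeq (GRCm38.p6) and coordinates from GENCODE M21, which held 49326 of the identifiers.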

Additional observations from a re-analysis of the deposited data

Results flagged for a closer look

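The difference between LIF effects was tested with edgeR at an adjusted p of 0.05, and the named genes that passed are given here. Between soft and stiff gels, 9 of the 15 genes that passed were among the named genes, and for them the difference in log2 fold change (soft minus stiff) was -0.38 for Jam2, 0.53 for Pim2, 0.47 for Zyx, 0.50 for Rpl29, -0.50 for Tns1, -0.34 for Tfcp2l1, 0.58 for Pou3f1, 0.54 for Thbs1 and 0.52 for Slc16a3. The adjusted p-values of these 9 ranged from 0.00612 to 0.0412. Slc16a3, a monocarboxylate transporter, was at 56.5, 57.2 and 54.2 CPM with LIF and 50.3, 59.03 and 56.7 CPM without it on soft gels, and at 57.9, 52.9 and 61.2 and 78.3, 91.9 and 75.4 CPM on stiff gels. On soft gels without minus with PD03, the difference was 0.88 for Trh, 0.45 for Vim, 0.41 for Ctnnal1 and -0.73 for Hist1h3h, with adjusted p-values of 0.00587, 2.19e-05, 0.00856 and 0.0382. Among the 6 libraries in serum + PD03, none of the 14 genes described under PD03 had a library that stood apart by Dixon's test.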

How the results depend on the processing

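The comparison on soft gels had 3 libraries a group and no second pool. No paired analysis was possible because the columns carry no replicate number. The count of 3 genes on soft gels was 46 with no filter (40 higher and 6 lower, 45 of them among the genes tested before), 36 with the DESeq2 Wald test and 0 in an edgeR fit of the 12 libraries without PD03, where 1149 genes had an unadjusted p under 0.05. Leaving out 1 library at a time gave 0 to 16. On stiff gels the count of 249 became 398 at an adjusted p under 0.1, 381 with no filter (139 higher and 242 lower) and 386 with DESeq2, and 118 to 231 with 1 library left out, with 118, 142 and 138 without LIF libraries 1 and 2 and serum library 2. Under PD03 the count of 19 became 38, 73 and 42 in that order, 3 to 22 with 1 library left out, and as low as 7 without 2 of the 6 serum + PD03 libraries. For LIF by stiffness the count of 15 became 29, 173 and 98, 1 in the 12 libraries, and 0 to 124 with 1 library left out. For LIF by PD03 the count of 4 became 10, 41 and 27, 1 to 8 with 1 library left out, and as low as 1 without 2 libraries. The soft count was 16 without library 3 with LIF, and 0 without library 1 or 2 with LIF (1309 and 1117 genes of unadjusted p below 0.05 in edgeR) and without serum library 1 or 3 (1425 and 1173). The count under PD03 was 5, 11 and 3 without libraries 1, 2 and 3 with LIF and PD03. The share of stiff LIF genes with the same sign on soft gels was 56.4% with no filter, 69.4% with DESeq2 and 60.1% to 84.1% with 1 library left out. The share of genes with an interval within 0.5 of 0 was 47.7% with no filter, 64.5% with the filter of 1 CPM, 63.7% in the 12 libraries, 65.7% in the 6 libraries, and 51.7% to 52.9% with 1 library left out. The cause of these shifts was not tested.

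Of 1559 recomputed log2 fold changes of the named genes on soft gels, 1465 kept their sign and their side of the threshold, 18 lost a call, 28 gained one and 48 changed sign. All changes of sign were in genes not past the threshold. They were with size factors 0.0032 for Stat5b and 0.0018 for Klf2, with no filter 0.010 for Stat5b and 0.0081 for Klf2, with the DESeq2 Wald test 0.0032 for Stat5b and 0.0018 for Klf2, with the filter of 1 CPM -0.0034 for Ptpn6, with 12 libraries -0.0027 for Ptpn6, with 6 libraries -0.00040 for Ptpn6. With 1 library left out the ranges that crossed 0 were Acta2 from -0.32 to 0.050, Cnn2 from -0.083 to 0.10, Flnc from -0.027 to 0.13, Fos from -0.45 to 0.28, Gab1 from -0.018 to 0.065, Il6ra from -0.37 to 0.56, Klf2 from -0.046 to 0.021, Lif from -0.011 to 0.29, Lin28a from -0.022 to 0.049, Pim3 from -0.021 to 0.13, Pou5f1 from -0.015 to 0.059, Prdm14 from -0.080 to 0.25, Ptpn11 from -0.050 to 0.025, Ptpn2 from -0.033 to 0.057, Ptpn6 from -0.034 to 0.072, Sall4 from -0.00055 to 0.087, Slc16a3 from -0.050 to 0.068, Socs1 from -0.21 to 0.18, Stat5b from -0.23 to 0.21, Tcl1 from -0.016 to 0.077, Thbs1 from -0.042 to 0.19, Utf1 from -0.0066 to 0.12, Vcl from -0.075 to 0.00019 and Zyx from -0.14 to 0.010.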

Other observations

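One abundant gene, singled out after its values were seen, had a large log2 fold change without a call. The histone gene Hist1h4h was at 433, 382 and 347 CPM in the 3 libraries with LIF and at 50.2, 318 and 61.4 CPM in those without it, a log2 difference of 1.43 ± 0.74 (SE) with an edgeR adjusted p of 0.668. The groups did not overlap, but serum library 2 lay near the libraries with LIF and far from the other 2 serum libraries. Its reads may be shared with near-identical histone genes, so the value is uncertain.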
